A study of Saccharomyces cerevisiae x Saccharomyces kudriavzevii with 6 samples.

Results

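The hybrid wine yeast W27 was profiled during cool (12°C) and warm (28°C) fermentation on 3 dual-colour arrays, replicates A, B and C, out of 6 arrays in the series. W27 (Lalvin W27) is a commercial allotriploid hybrid of *Saccharomyces cerevisiae* and *Saccharomyces kudriavzevii* that has lost parts of the *S. kudriavzevii* copies of chromosomes IV, IX and XV. It was grown in Tempranillo grape must at either temperature, and total RNA was taken when exponential growth began. On all 3 W27 arrays the 12°C RNA carried Cy5 and the 28°C RNA carried Cy3, so that dye and temperature cannot be told apart within W27, whereas 1 of the 3 arrays of the other hybrid, VIN7, carried the dyes the other way round. The spots were PCR-amplified open reading frames (ORFs) of the *S. cerevisiae* laboratory strain S288c, and a spot therefore read the alleles of both parents together. Each value was a log2 ratio of 12°C over 28°C, where 1 is a 2-fold higher and -1 a 2-fold lower level at 12°C. ORFs with a value on at least 2 of the 3 W27 arrays were kept for the tests, which were 4894 of the 5616 ORFs of the table. Medians and counts on a single array used every ORF with a value on that array. A further 586 ORFs had 1 value and 136 had none. The labels call the arrays biological replicates but the methods name fewer independent fermentations than arrays. The tests below therefore rest on the spread between these arrays, much of it pooled over ORFs, and their small number limits the precision.

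During wine fermentation *Saccharomyces* yeasts turn grape sugar into ethanol through glycolysis, pyruvate decarboxylase and alcohol dehydrogenase. Cold slows enzymes, stiffens membranes and stabilises RNA structures, and yeast in the cold is known for changes in the genes of ribosomes and translation, of membrane lipids and of cell wall mannoproteins. *S. kudriavzevii* grows well in the cold, and its hybrids with *S. cerevisiae* are used for cool fermentations.

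The 3 arrays differed in what they showed. Arrays B and C correlated closely over 3938 ORFs (Spearman's rho = 0.79), and the correlation held after each chromosome arm was centred (rho = 0.775). Array A ran weakly against both, with rho = -0.178 against B over 4542 ORFs and -0.217 against C over 3640 ORFs. It also ran against VIN7 A, B and C (rho = -0.29, -0.105 and -0.311). W27 B and C had rho = 0.653 and 0.568 with VIN7 A, and 0.323 and 0.338 with VIN7 B. With the dye-swapped VIN7 C they had 0.09 and 0.0845. The part of the dyes in this was not tested. These correlations are over ORFs of the same 6 hybridisations and describe the arrays only. Among the W27 arrays, A was also the widest, with 2413 of its 4834 ORFs (49.9%) changed at least 2-fold in either direction. On B they were 29.1% of 5172 ORFs and on C 29.7% of 3981 ORFs. The results are therefore given array by array, and each count with and without array A.

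**Figure D1:**
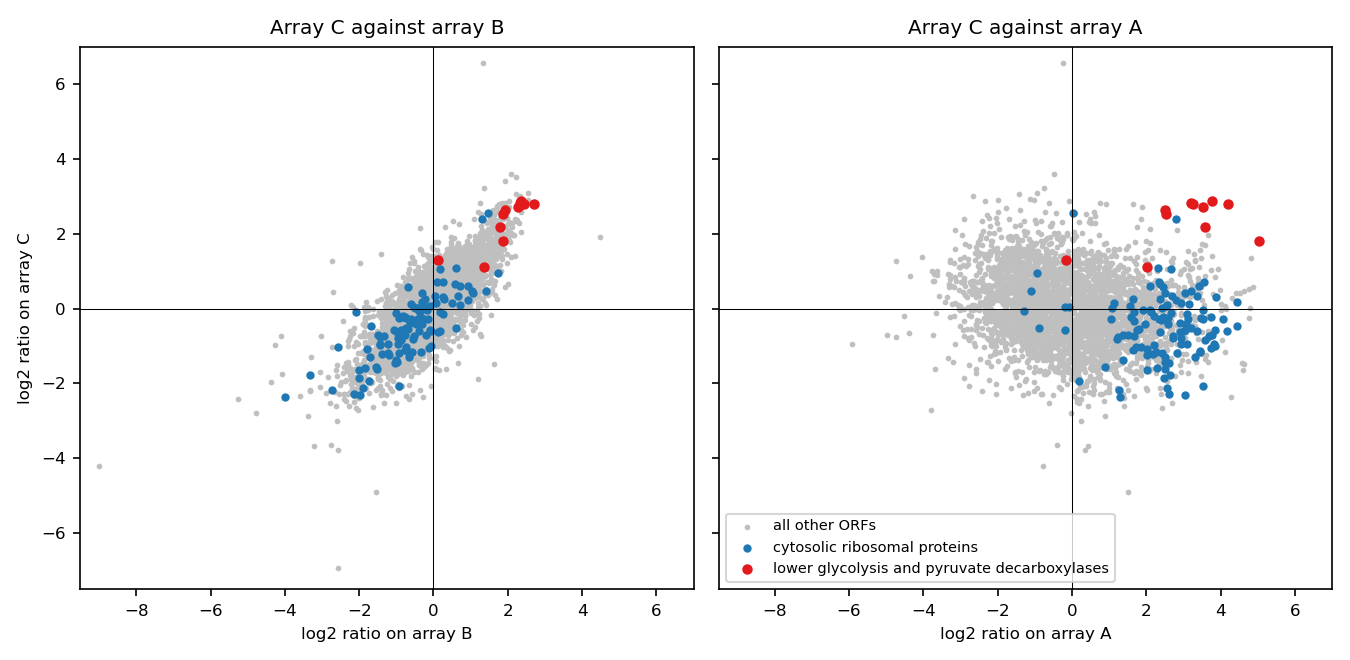
Log2 ratios of 12°C over 28°C of single ORFs, on array C against array B (left) and on array C against array A (right). Cytosolic ribosomal proteins (blue) lay mostly below 0 on B and C but above 0 on A, whereas lower glycolysis and the pyruvate decarboxylases (red) were high on all 3 arrays.

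With all 3 arrays, limma called 0 of 4894 ORFs at a false discovery rate of 5% (0.0%). The smallest adjusted p was 0.661, and 356 ORFs had an unadjusted p under 0.05, of which 175 were higher and 181 lower at 12°C. Without array A, limma called 769 of 3938 ORFs higher at 12°C (19.5%) and 771 lower (19.6%). "Rose" and "fell" are used below only of ORFs called in this test of arrays B and C, and the counts of each list are to be read against these shares. With 2 values per ORF, the limma SE rests mostly on a spread pooled over all ORFs. YBR121C and YCR105W, with an SD over B and C of 0.0014 and 0.33, had an SE of 0.26 and 0.27. The SEs and adjusted p-values below thus say little about the spread of a single ORF. Array A did not enter the calls on B and C, but it was left out knowing that it ran against them. Its shares below therefore restate the correlations above and are no separate check of the calls. Leaving out B instead gave 0 calls, and leaving out C gave 0 higher and 2 lower. Of the 645 ORFs that rose and had a value on A, 192 were above 0 there (29.8%) and 270 were at least 2-fold lower. Of the 736 ORFs that fell and had a value on A, 449 were above 0 (61.0%) and 236 were at least 2-fold higher. Over all ORFs in the test, 44.5% were above 0 on A. Array A thus leaned to the opposite side for most of the ORFs called on B and C, and no ORF kept its call when A was added at equal weight.

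ORFs that moved the same way on all 3 arrays were a minority. Of 3613 ORFs with 3 values, 470 were above 0 on every array (13.0%) and 681 below 0 (18.8%). At least 2-fold higher on every array were 39 (1.08%), and at least 2-fold lower were 48 (1.33%). To describe what these ORFs do, 30 lists of ORFs of known function were used, with 746 ORFs in the table. The lists were chosen with earlier results of these data known, so their counts are a description. Of the 3613 ORFs with 3 values, 563 stood in a list. Of the 39 ORFs that were higher, 19 stood in a list. They were 7 of lower glycolysis, 3 pyruvate decarboxylases, 2 of upper glycolysis, 2 of sulfate assimilation, 2 aminoacyl-tRNA synthetases, 1 alcohol dehydrogenase, 1 ribosomal protein and 1 of amino acid biosynthesis. Of the 48 that were lower, only 4 stood in a list, each in a different one.

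**Figure D2:**
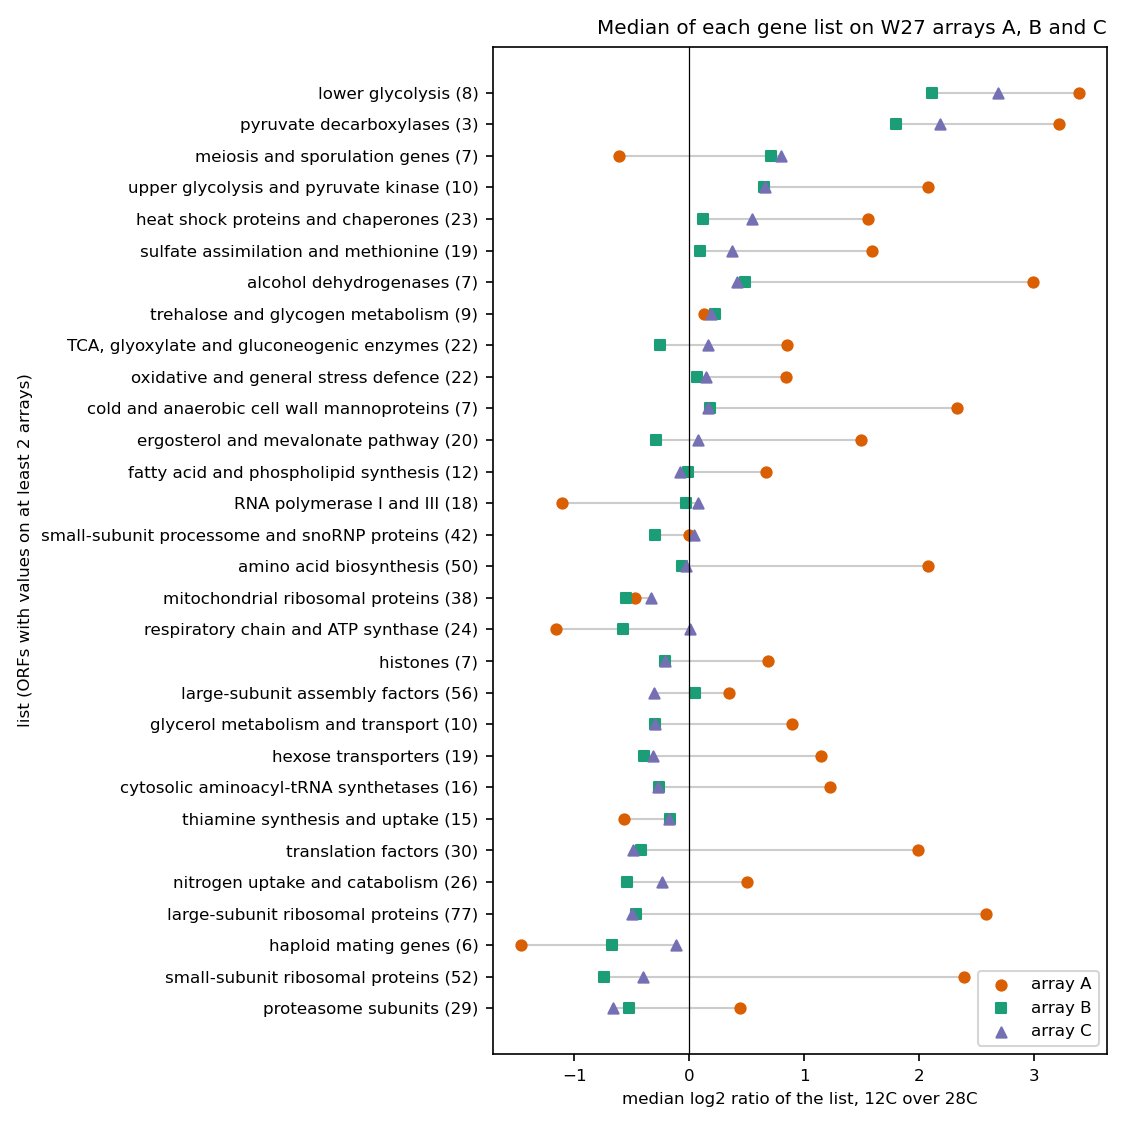
Median log2 ratio of 12°C over 28°C of each gene list on array A (circles), B (squares) and C (triangles), ordered by the median of the means of B and C, with the number of ORFs that had values on at least 2 arrays in brackets. Each median used every ORF of the list with a value on that array. Lower glycolysis and the pyruvate decarboxylases were far above 0 on all 3 arrays, and the ribosomal protein lists were above 2 on A but below 0 on B and C.

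Lower glycolysis, the steps from glyceraldehyde 3-phosphate to phosphoenolpyruvate, was high on all 3 arrays. The list had a median log2 ratio of 3.39 on array A, 2.11 on B and 2.69 on C, against -0.11, -0.05 and 0.08 over all ORFs. Of its 8 ORFs in the test 7 rose and 0 fell, and the same 7 were at least 2-fold higher on all 3 arrays. *ENO1* (YGR254W), an enolase, had ratios of 4.20 on A, 2.69 on B and 2.80 on C, and *ENO2* (YHR174W), the other enolase, had 3.26, 2.44 and 2.81. All 6 values were above 2, and the mean of B and C was 2.75 ± 0.26 (limma SE, 6.72-fold) for *ENO1* and 2.62 ± 0.26 (6.16-fold) for *ENO2*, both with an adjusted p of 0.000388. The glyceraldehyde-3-phosphate dehydrogenases *TDH1* (YJL052W), *TDH2* (YJR009C) and *TDH3* (YGR192C) lay between 1.94 and 3.78 on every array. *TDH2* was the least spread of them, at 2.51 on A, 1.94 on B and 2.65 on C. The copies of *TDH* and of *ENO* are close enough in sequence to share labelled cDNA, so their spots do not measure them independently.

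*PGK1* (YCR012W), the phosphoglycerate kinase, had the highest ratio of all ORFs on array A, 5.04, but 1.87 on B and 1.81 on C. Its ratio on A stood more than 3 log2 units above both others, and the spread over the 3 arrays was large (SD 1.85), yet it rose on B and C (adjusted p = 0.000779). *GPM1* (YKL152C), the phosphoglycerate mutase, had 2.53 on A, 1.87 on B and 2.53 on C. YKL153W, which neighbours it in the systematic numbering, had 2.82, 2.01 and 2.10. Whether its spot and that of *GPM1* read separate transcripts was not tested. The member of the list that was not called was YOL056W, listed as a further phosphoglycerate mutase, with -0.17 on A, 0.11 on B and 1.29 on C (adjusted p = 0.105).

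Upper glycolysis and pyruvate kinase were less uniform. The list had a median of 2.07 on array A, 0.65 on B and 0.66 on C, and 4 of 9 ORFs rose and 0 fell. YKL060C had 3.49 on A, 1.19 on B and 1.74 on C, and *PFK2* (YMR205C), a subunit of phosphofructokinase, had 3.22, 1.69 and 1.09. *PFK1* (YGR240C), the other subunit, had 1.80 on A and 1.42 on B and no value on C. Phosphofructokinase commits sugar to glycolysis, and both of its subunits were thus high wherever they were measured. YGL253W and YDR050C also rose, with means of B and C of 0.93 ± 0.26 and 0.76 ± 0.26 (limma SE). The ORFs of the list that were not called were mixed. YAL038W had 2.35 on A but 0.45 on B and 0.43 on C, YBR196C had 0.67, 0.01 and 0.74, and YOR347C had -0.63, -0.63 and -0.33. YFR053C and YCL040W were above 0 on A, at 1.56 and 1.03, and below 0 on B and C.

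The pyruvate decarboxylases, which open the branch from pyruvate to ethanol, all rose. *PDC1* (YLR044C), the main enzyme, had 3.21 on A, 2.34 on B and 2.83 on C. *PDC5* (YLR134W) had 3.57, 1.80 and 2.18, and *PDC6* (YGR087C), the minor isoform, had 2.03, 1.35 and 1.11. Each value exceeded 1, and the mean of B and C was 2.58 ± 0.27 for *PDC1*, 1.99 ± 0.26 for *PDC5* and 1.23 ± 0.26 for *PDC6* (limma SE, adjusted p = 0.000388, 0.000625 and 0.00511). As with *TDH* and *ENO*, the *PDC* copies can share labelled cDNA.

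The alcohol dehydrogenases, a family that includes the enzymes of the last step to ethanol and its reverse, were mixed as a list. Members that act in that step were not separated here from the others. Whether the spots of this list share labelled cDNA was not tested, so they cannot be taken as independent. The list had a median of 2.99 on array A, 0.49 on B and 0.41 on C, and 2 of its 7 ORFs rose and 1 fell. YMR303C had 4.82 on A, 1.16 on B and 1.36 on C, and YOL086C had 3.12, 1.27 and 0.89. Their means of B and C were 1.26 ± 0.26 and 1.08 ± 0.26 (limma SE, adjusted p = 0.00465 and 0.0101). YCR105W went the other way, with -3.21 on B and -3.68 on C (10.9-fold lower, adjusted p = 0.000388) but 0.44 on A. The remaining 4 were not called. YMR083W had 4.41 on A but 0.55 on B and 0.41 on C, YBR145W had 2.83, 0.49 and 0.11, YMR318C had 2.99, -0.81 and 0.43, and YDL168W had -1.69, -0.94 and -0.09.

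**Figure D3:**
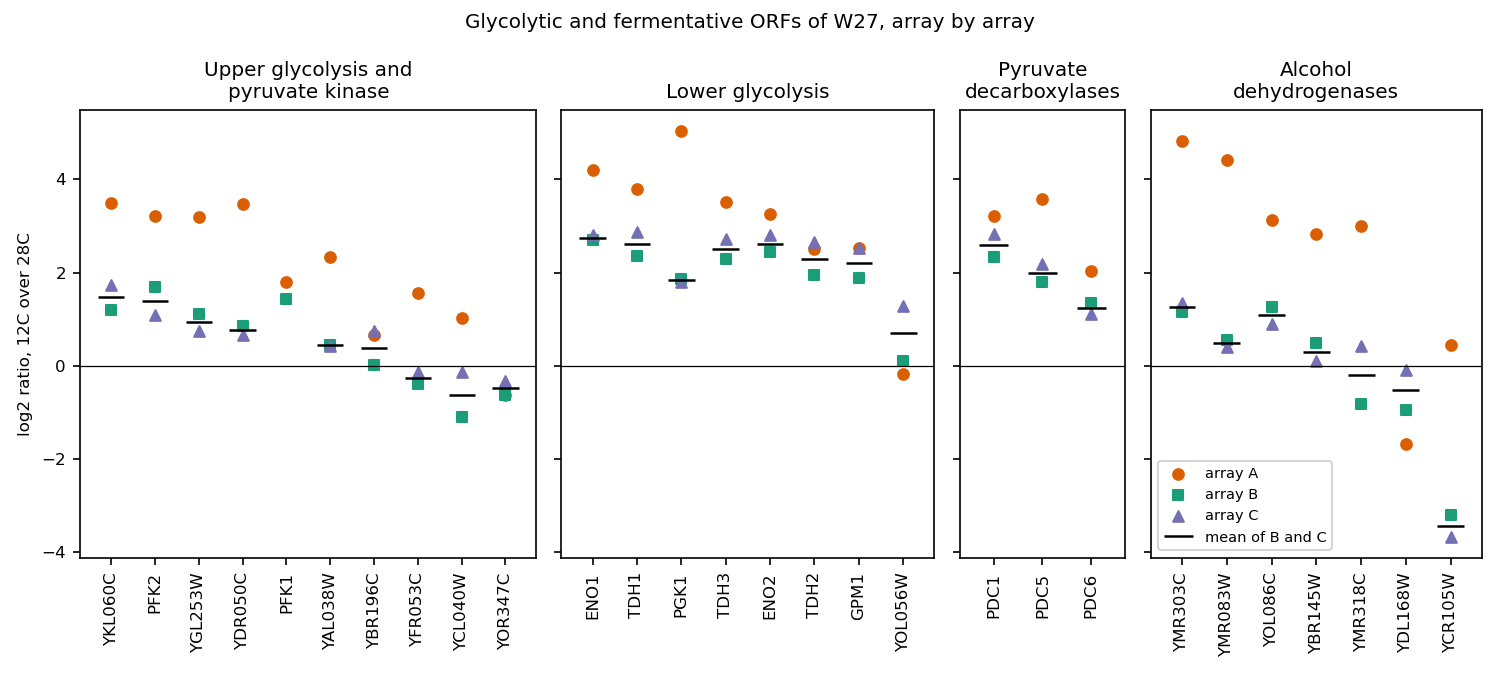
Log2 ratio of 12°C over 28°C of each ORF of upper glycolysis and pyruvate kinase, lower glycolysis, the pyruvate decarboxylases and the alcohol dehydrogenases, on array A (circles), B (squares) and C (triangles), with the mean of B and C as a bar where both were measured. The 7 high ORFs of lower glycolysis and the 3 pyruvate decarboxylases lay above 1 on every array, and most of the other ORFs were much higher on A than on B and C.

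Genes beside the main route to ethanol did not share this pattern. The list of glycerol metabolism and transport, which holds the enzymes that make and use the osmolyte glycerol, had a median of 0.89 on array A and of -0.30 on both B and C, with 0 of 7 ORFs that rose and 2 that fell. YOL059W had 3.84 on A, -0.58 on B and -0.91 on C (adjusted p = 0.0453), and YOR120W was near -1 on all 3 arrays, at -1.16, -0.96 and -0.93 (adjusted p = 0.0161). YIL053W, at 4.30 on A, 0.59 on B and 0.28 on C, was not called. Among the hexose transporters, which carry glucose and fructose into the cell, 1 of 16 rose and 4 fell, and the list median was 1.15 on A, -0.40 on B and -0.32 on C. The one that rose was YLR081W, with 1.15 on A, 0.43 on B and 1.58 on C, while YHR094C had 2.42, 0.09 and 0.39 and was not called. Of the trehalose and glycogen list, carbohydrate stores of the yeast cell, 1 of 8 rose and 0 fell, and the medians of 0.13, 0.23 and 0.18 lay near 0 on all 3 arrays.

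The cytosolic ribosomal proteins showed the sharpest split between the arrays. On array A 119 of 129 were above 0 and 116 were at least 2-fold higher, with a median of 2.50. Over all ORFs on A, 47.1% were above 0 and 1124 of 4834 were at least 2-fold higher. On array B 30 of 130 were above 0, with a median of -0.54, and on C 32 of 118, with a median of -0.44. Of the 118 tested on B and C, 43 fell (36.4%) and 7 rose (5.93%), against 19.6% and 19.5% of all ORFs. Both subunits behaved alike in this respect. The small-subunit list had medians of 2.39 on A, -0.74 on B and -0.40 on C (23 fell and 3 rose of 50), and the large-subunit list had 2.58, -0.46 and -0.49 (20 fell and 4 rose of 68). The direction for this family in W27 thus depended wholly on whether array A or arrays B and C were read. In VIN7, another strain, the medians of the family were -0.44 on A, -0.73 on B and -0.22 on the dye-swapped C.

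Single ribosomal proteins departed from the family. *RPS27b* (YHR021C), of the small subunit, was the only one that was at least 2-fold higher on all 3 arrays, with 2.79 on A, 1.31 on B and 2.40 on C (adjusted p = 0.00166). YOR182C, also of the small subunit, had 1.48 on B and 2.56 on C (adjusted p = 0.00114) but 0.04 on A. *RPL20b* (YOR312C), of the large subunit, had 3.17 on A and 3.28 on B and no value on C. In the other direction, YGR085C had -4.00 on B and -2.35 on C (9.06-fold lower, adjusted p = 0.000419) against 1.30 on A. YPL079W gave the highest ratio of the family on A, 4.46, and -0.31 and 0.19 on B and C. *ASC1* (YMR116C), a scaffold protein on the small subunit, had 3.04, 1.07 and 0.41 and was not called (adjusted p = 0.0580). Many ribosomal proteins are encoded by pairs of near-identical genes, whose spots share labelled cDNA.

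The factors that drive translation showed the same split between arrays. Translation factors had a median of 1.99 on array A, -0.42 on B and -0.49 on C, and 2 of 28 rose and 9 fell. *TEF1* (YPR080W), elongation factor 1 alpha, had 3.66 on A, -0.24 on B and -0.20 on C. *EFT1* (YOR133W) and *EFT2* (YDR385W), which encode the same elongation factor 2, had 3.43 and 3.51 on A. On B and C *EFT1* had 0.65 and 1.11 and was called, and *EFT2* had 0.09 and -0.61 and was not. The difference was not tested, and the near-identical copies share labelled cDNA, so the spots do not separate the genes. *SUI1* (YNL244C), the initiation factor that helps to choose the start codon, was low everywhere, with -1.63 on A, -1.50 on B and -2.12 on C (mean of B and C -1.81 ± 0.28, limma SE, adjusted p = 0.00111). Of the cytosolic aminoacyl-tRNA synthetases, which load amino acids on tRNAs, 4 of 15 rose and 5 fell. *VAS1* (YGR094W), the valyl-tRNA synthetase, had 2.04 on A, 1.33 on B and 1.58 on C, and YHR019C had 3.13, 1.11 and 1.19. YBR121C fell, with -1.90 on both B and C, and had 0.75 on A.

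Ribosome assembly factors, which build the subunits in the nucleolus, were spread around 0 on all arrays. The small-subunit processome and snoRNP list had medians of 0.00 on A, -0.29 on B and 0.04 on C, with 6 of 39 that rose and 11 that fell. The large-subunit assembly list had 0.34, 0.05 and -0.30, with 7 of 47 that rose and 14 that fell. The shares that fell, 28.2% and 29.8%, were above the 19.6% of all ORFs. At least 2-fold lower on A were 10 of 43 and 11 of 52 ORFs of the lists, against 1289 of 4834 over all ORFs. On B they were 10 of 43 and 14 of 57, against 840 of 5172, and on C 8 of 39 and 12 of 47, against 526 of 3981. Below 0 on all 3 arrays were 6 of 37 and 5 of 42, against 18.8% of all ORFs with 3 values. Of the ORFs that fell, 5 are given as examples, all lower on B and C and above 0 on A. YCR057C had -2.42 on B, -2.41 on C and 0.25 on A, YGR159C had -2.15, -2.21 and 0.15, and YDR365C had -2.14, -2.49 and 0.15. YER126C and YKR081C, of the large-subunit list, had means of B and C of -2.80 ± 0.27 and -2.16 ± 0.27 (limma SE) against 0.25 and 0.40 on A. Neither list had an ORF at least 2-fold changed the same way on all 3 arrays. RNA polymerases I and III, which transcribe rRNA and tRNA, had medians of -1.10 on A, -0.03 on B and 0.07 on C, with 3 of 15 that rose and 2 that fell.

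**Figure D4:**
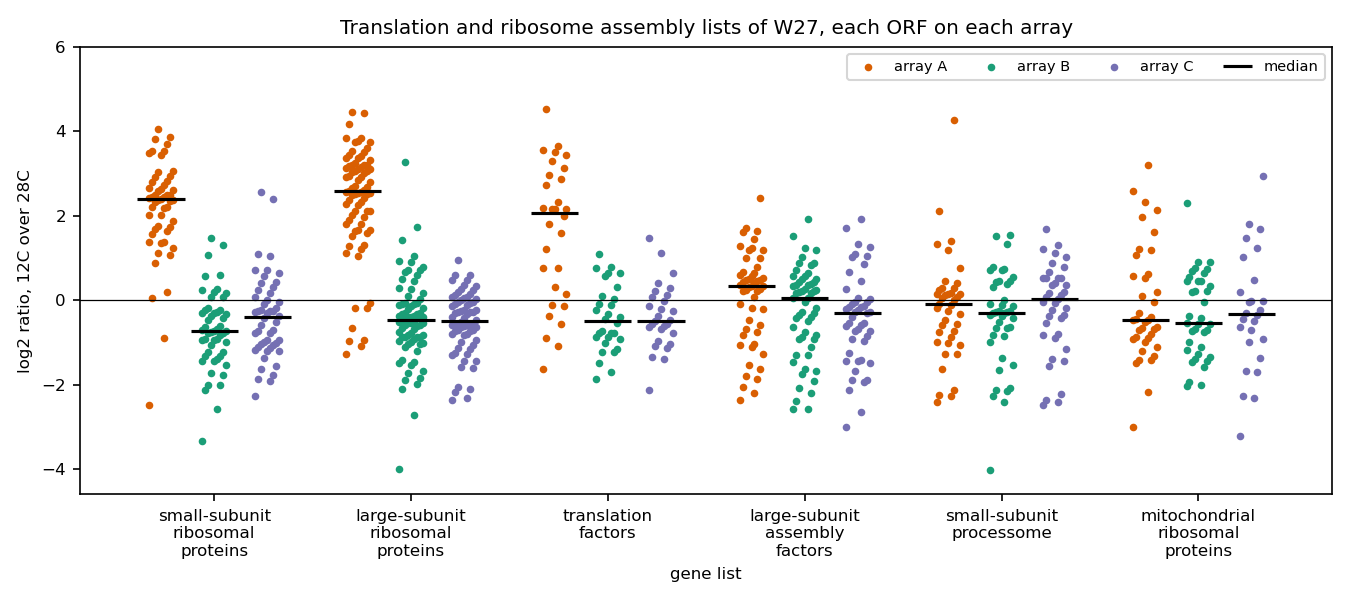
Log2 ratio of 12°C over 28°C of every ORF (points) with values on at least 2 arrays in 6 lists of translation and ribosome assembly, on arrays A, B and C, with the median of the plotted points as a bar. The ribosomal protein and translation factor lists moved from above 0 on A to below 0 on B and C, and the assembly and mitochondrial ribosome lists did not.

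Mitochondrial functions had list medians below 0 on most arrays. Mitochondrial ribosomal proteins had medians of -0.47 on A, -0.55 on B and -0.33 on C, with 6 of 25 that rose (24.0%) and 8 that fell (32.0%), against 19.5% and 19.6% of all ORFs. *MRPL7* (YDR237W) had -0.47 on A, -2.01 on B and -1.68 on C, and YMR158W had -1.32, -1.26 and -2.31. YGR076C was the exception in size, with 2.30 on B and 2.94 on C (6.15-fold higher, adjusted p = 0.000388) but -1.11 on A. The respiratory chain and ATP synthase list had medians of -1.16 on A, -0.57 on B and 0.01 on C, and 2 of 16 rose and 5 fell. YJR048W was low on all 3 arrays, at -1.46, -0.98 and -1.65 (adjusted p = 0.00511). *ATP2* (YJR121W), the beta subunit of ATP synthase, was high on the arrays that measured it, at 1.49 on A and 2.27 on B.

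In the list of sulfate assimilation and methionine synthesis 5 of 17 ORFs tested rose (29.4%) and 1 fell (5.88%), against 19.5% and 19.6% of all ORFs, and the medians were 1.59 on A, 0.09 on B and 0.38 on C. YFR030W had 2.15 on A, 1.21 on B and 1.34 on C, and YKL001C had 1.51, 1.10 and 1.68. YJR010W was higher on B and C, at 1.98 and 1.46, than on A, at 0.67. YER091C was the reverse, with 3.93 on A, 0.75 on B and 1.07 on C. All 4 rose. In the wider list of amino acid biosynthesis 4 of 44 rose and 10 fell. On A 46 of 50 were above 0, against 47.1% of all ORFs, and the medians were 2.08 on A, -0.06 on B and -0.03 on C. *LYS9* (YNR050C), of the lysine pathway, was the member that exceeded 2-fold on all arrays, with 3.66 on A, 1.69 on B and 1.96 on C (mean of B and C 1.82 ± 0.26, limma SE, adjusted p = 0.000817). YJR016C and YHR208W also rose, with 0.91 and 1.30 and with 0.57 and 1.41 on B and C, and *ILV2* (YMR108W), the first step of the branched-chain pathway, had 2.67 on A and 1.01 on B and no value on C.

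Lipid and cell wall genes, which are linked to growth in the cold, gave no uniform picture. Of the ergosterol and mevalonate list, which builds the yeast membrane sterol, 4 of 17 rose and 3 fell, with medians of 1.49 on A, -0.29 on B and 0.08 on C. YGR060W had 0.61 on A, 1.73 on B and 2.58 on C (4.46-fold on the mean of B and C, adjusted p = 0.000625), and YML126C had 1.75, 0.62 and 1.39 (adjusted p = 0.0185). Of fatty acid and phospholipid synthesis 2 of 12 rose and 0 fell. The cell wall mannoproteins known from cold and anaerobic growth were all above 0 on array A, 7 of 7 against 47.1% of all ORFs, with a median of 2.33. On B and C their medians were 0.18 and 0.16, and 1 of the 4 that could be tested rose. YER011W, for example, had 2.50 on A, 0.02 on B and -0.47 on C.

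Heat shock proteins and chaperones, which fold other proteins, had medians of 1.55 on A, 0.12 on B and 0.55 on C, and 3 of 19 rose and 1 fell. *SSA2* (YLL024C), a cytosolic Hsp70, had 2.67 on A, 0.68 on B and 1.28 on C (adjusted p = 0.0179), and *SSB2* (YNL209W), a ribosome-bound Hsp70, had 2.56, 0.66 and 0.60 (adjusted p = 0.0758). Of the oxidative and general stress list 3 of 17 rose and 4 fell, shares near those of all ORFs (19.5% and 19.6%). YDR453C and YDR353W fell, with -2.40 and -2.28 and with -2.04 and -2.40 on B and C, and were above 0 on A, at 0.76 and 1.28. *DDR2* (YOL052C-A), a stress-induced gene, had 3.68 on A and 0.94 on B. Proteasome subunits, which degrade proteins, had medians of 0.45 on A, -0.53 on B and -0.66 on C, with 1 of 25 that rose and 7 that fell. YDL007W fell, with -0.12 on A, -1.47 on B and -1.70 on C, whereas *PRE5* (YMR314W) had 2.41, 0.77 and 0.32 and was not called.

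The remaining lists were small or held few calls. Nitrogen uptake and catabolism had 0 of 18 that rose and 4 that fell, and thiamine synthesis and uptake 0 of 14 and 2. Thiamine pyrophosphate is the cofactor of pyruvate decarboxylase. *THI11* (YJR156C) had -0.93 on A, -0.73 on B and -1.35 on C, and YDL244W had -1.24, -1.17 and -1.88. Both were thus low on all 3 arrays, and both fell (adjusted p = 0.0139 and 0.00270). The share of the thiamine list that fell, 14.3%, was below the 19.6% of all ORFs. Whether the spots of these ORFs share labelled cDNA was not tested. The TCA, glyoxylate and gluconeogenic enzymes had 1 of 15 that rose and 3 that fell, and the histones 0 of 5 and 1. As markers of other cell states, haploid mating genes had 0 of 5 in either direction, and YKL178C had -2.27 on A, -0.67 on B and -0.25 on C. Of the meiosis and sporulation genes 4 of 5 rose. YHL022C had 2.55 on B and 3.09 on C but -0.94 on A, and after each chromosome arm was centred only 1 of the 5 was called. A log2 ratio between temperatures does not give the level of any of these genes.

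Outside the lists, the gene names in the study's supplementary list identified further ORFs that were at least 2-fold higher on all 3 arrays. *GLC7* (YER133W), the catalytic subunit of protein phosphatase 1, had 1.85 on A, 2.19 on B and 2.40 on C. *ESC1* (YMR219W), a protein of the nuclear periphery, had 1.90, 1.95 and 2.72. *ACT1* (YFL039C), the actin gene and a reference gene of the qPCR of the study, had 3.11 on A, 1.56 on B and 1.54 on C (mean of B and C 1.55 ± 0.26, limma SE, adjusted p = 0.00166), and was picked here after its values were seen. Its ratio stayed positive with the arrays centred on their medians, scaled to a common spread or centred by chromosome arm.

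The ORFs that were at least 2-fold lower on all 3 arrays had no common function in the lists, which held only 4 of these 48 ORFs. YER010C had the lowest mean of them, with -3.80 on A, -2.02 on B and -2.71 on C. *SPC3* (YLR066W), a subunit of the signal peptidase, had -2.42, -3.33 and -2.20, and YBL053W had -2.03, -2.53 and -2.29. *CIR1* (YGR207C), a mitochondrial flavoprotein, had -1.09, -3.31 and -1.30. The lowest single value of array B belonged to *RMD1* (YDL001W), at -9.00, with -4.21 on C but -0.78 on A.

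Some of the strongest calls on B and C stood at least 2-fold on the opposite side on A. Apart from YGR076C, YLR366W had 2.34 on B and 3.02 on C against -2.67 on A, and YKL115C had 2.54 and 2.90 against -1.98. Among those that fell, YOL042W had -3.33 and -2.18 against 2.02, and YDR068W had -2.63 and -2.59 against 1.40.

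The lower calls were uneven over the genome. The chromosome arms compared here were grouped after their medians had been seen, so the counts are a description. On chromosomes I to III and the left arm of IV, as read from the ORF names, 207 of 524 ORFs fell (39.5%) and 24 rose (4.58%), whereas on all other arms 564 of 3414 fell (16.5%) and 745 rose (21.8%). The median ratio of the first group was -0.77 on array B and -0.37 on C but -0.05 on A, against 0.04, 0.14 and -0.12 on the other arms. Of the 48 ORFs at least 2-fold lower on all 3 arrays, 19 lay in this group, and of the 39 that were higher, 1. Among the chromosomes of which W27 lacks *S. kudriavzevii* parts, IV had medians of -0.18 on A, -0.34 on B and -0.21 on C, IX had -0.28, 0.05 and 0.21, and XV had -0.07, -0.01 and 0.08. Within IV the left arm had -0.17 on A, -0.75 on B and -0.39 on C, and the right arm had -0.18, -0.19 and -0.14. The lowest chromosome medians on B were those of III and II. The part of the lost copies in these medians was not tested. In VIN7 the medians of the first group were -0.36 on A and -0.62 on B but 0.22 on the dye-swapped array C. The part of this in the calls was not tested beyond the counts after arm centring, which were 710 higher and 724 lower. With that centring the ORFs that rose became 8 of 44 in place of 4 for amino acid biosynthesis, 3 of 118 in place of 7 for the ribosomal proteins, 1 of 17 in place of 3 for the oxidative and general stress list, 3 of 15 in place of 1 for the TCA list and 0 of 12 in place of 2 for fatty acid and phospholipid synthesis. Those that fell became 2 of 18 in place of 4 for nitrogen uptake and 5 of 17 in place of 3 for ergosterol. Upper glycolysis and pyruvate kinase had 6 of 9 that rose in place of 4, and the alcohol dehydrogenases 3 of 7 in place of 2. Lower glycolysis and the pyruvate decarboxylases kept 7 and 3.

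**Figure D5:**
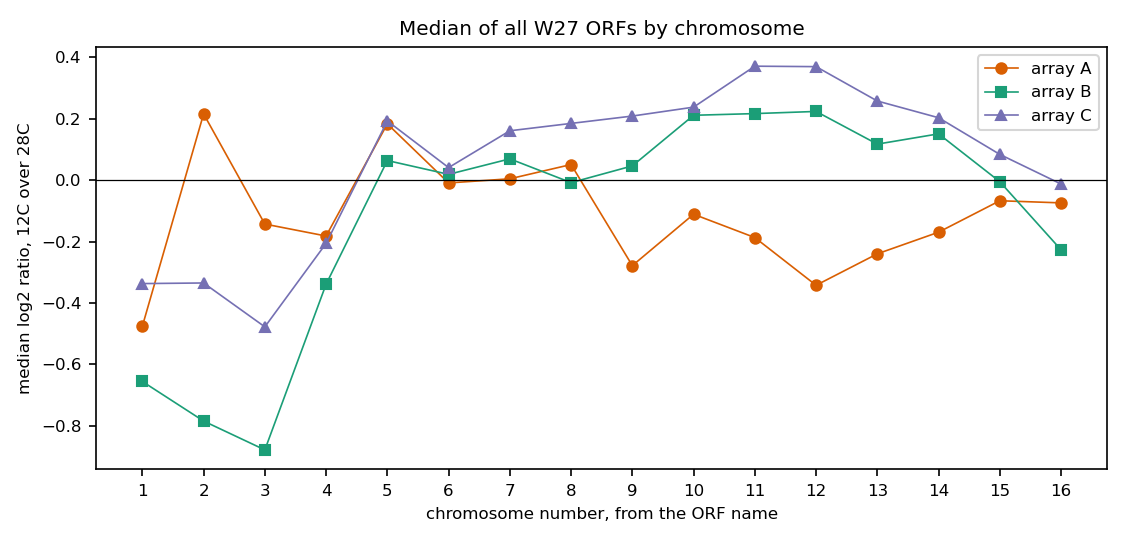
Median log2 ratio of 12°C over 28°C of all ORFs of each chromosome on W27 arrays A (circles), B (squares) and C (triangles), with chromosomes numbered as in the ORF names. Chromosomes 1 to 4 lay below 0 on B and C, and chromosome 2 was above 0 on A.

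The VIN7 arrays, which did not enter the W27 calls, were read for the same ORFs. Of the ORFs that rose in W27, 90.0% were above 0 on VIN7 A and 75.1% on VIN7 B, where 12°C carried Cy5 as in W27, and 52.8% on VIN7 C, where it carried Cy3. Of those that fell, 11.0%, 28.1% and 41.7% were above 0 on these arrays, against 49.9%, 49.5% and 50.0% of all ORFs tested. Of the 39 ORFs at least 2-fold higher on all 3 W27 arrays, 94.6% of those measured were above 0 on VIN7 A, 68.8% on B and 41.0% on C. Of the 48 that were lower, the shares were 14.9%, 13.3% and 58.3%. On the dye-swapped array C the medians of these sets lay near 0, at -0.07 for the higher and 0.20 for the lower. VIN7 is another strain and its array C had a narrow spread (SD 0.39), so these shares are a description. The families differed in this reading. The 3 pyruvate decarboxylases were above 0 on all 3 VIN7 arrays, with medians of 1.92, 1.57 and 1.43. Lower glycolysis had medians of 0.80, 0.12 and 0.13, with 7 of 7, 4 of 8 and 6 of 8 ORFs above 0. *ENO1* had 0.50, -0.67 and 0.02 there, and *PGK1* had 1.07, -0.65 and 1.24. *GLC7* had 1.74, 2.35 and -0.20, *ESC1* had 1.82, 1.89 and -0.17, YHL022C had 1.71, 2.60 and -0.50, and *ACT1* had 1.81 on A and -0.31 on C. The part of the dyes in the W27 ratios was not tested.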

How the data were processed

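Per the labels and the methods, amplified RNA was labelled with Cy3 or Cy5 and hybridised to S288c ORF arrays. Background subtraction by the authors was done in GenePix, and normalisation of single arrays, spot filtering by flag and a manual print tip correction in Acuity. They deposited the log2 ratio of 12°C over 28°C for each ORF and array. The exact centring is not given in the sources used here, and the ratios were used as deposited. Their number per array (3981 to 5172 ORFs) is given in place of a depth, which arrays do not have.

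The mean of each ORF was compared with 0 by limma 3.58.1 (lmFit and eBayes, R 4.3.3), on arrays A, B and C for ORFs with at least 2 values, and on B and C for ORFs with both. Adjusted p-values are Benjamini-Hochberg values over all ORFs of a fit, and those printed come from the fit of B and C. Both fits were run on simulated data with independent noise and known changes, which checks the code only. The simulation did not copy the spread of these arrays or the opposite run of array A. It therefore gives no error rate for the calls. Alternatives were median centring, a common spread, robust empirical Bayes, complete values, array weights, leaving out each array, stricter thresholds, a test against a 1.5-fold change, the mean in place of the median and, added after the data were seen, centring within each chromosome arm.

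The ORFs described and the 30 lists were chosen with earlier results of these data known. The lists hold 800 ORFs, of which 746 are in the table. They were written by systematic name from general knowledge of yeast gene nomenclature, and no annotation table was used here to check them. The study's supplementary gene list names 66 of them, all 66 with the same gene. Gene symbols are printed only where that list gives them, and another ORF keeps its systematic name and the function of its list. ORFs were named if they were among the 10 largest means in each direction of those at least 2-fold changed on all 3 arrays, among the 5 largest in each direction of those called on B and C and at least 2-fold opposite on A, among the 6 largest means of a list or needed to describe a family, or in the study's W27 gene list. Of the ORFs that neither source names, at most 2 in each direction are given. Sequences, single-parent alleles and scanner intensities were not analysed here.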

Additional observations from a re-analysis of the deposited data

Results flagged for a closer look

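Some values of W27 had one sign on all 3 arrays and the opposite sign on all 3 VIN7 arrays. The difference between the strains was not tested, and VIN7 C carried swapped dyes. Whether the spots of one list share labelled cDNA was not tested either. Among the alcohol dehydrogenases, YMR303C had a mean log2 ratio of 2.44 in W27 and -1.01 in VIN7, YOL086C had 1.76 and -0.41, and YBR145W had 1.15 and -0.80. YDL168W of the same list had the reverse, -0.90 in W27 and 0.28 in VIN7. The mean of the array medians of this list was 1.30 in W27 and -0.59 in VIN7. YKL060C of upper glycolysis had 2.14 and -0.61. The W27 means hold array A, on which these ORFs lay farther from 0 than on B and C.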

How the results depend on the processing

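No paired analysis was possible because each ratio already sets 12°C against 28°C on 1 array, and W27 is a single group tested against 0 with no second group to block. With 3 arrays limma called 0 ORFs under median centring, a common spread, robust empirical Bayes, complete values, a threshold of 1% and arm centring, an alternative chosen after seeing the data. Array weights, which gave A a weight of 0.158, B 2.94 and C 2.15, called 823 ORFs higher and 920 lower. Leaving out 1 array gave 0 to 769 higher and 0 to 771 lower, the upper values without A, and without C 2 ORFs were called lower. On B and C, 393 rose and 421 fell at 1%, and 222 and 209 against a 1.5-fold change. The other settings moved neither count by over 1.5 times. By their median, 505 ORFs were at least 2-fold higher and 527 lower, and 56 and 70 passed a log2 ratio of 2. At least 2-fold on every array that measured them were 136 ORFs higher and 98 lower. With 3 values required they were 39 and 48, at a log2 ratio of 2 they were 14 and 10, and leaving out 1 array gave 82 to 330 higher and 69 to 333 lower, both highest without A.

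Of the ORFs named, these changed the sign of their 3-array mean, the cause was not tested, and 0 of them had been called on 3 arrays. YCL040W, at -0.07, was 0.45 without B and 0.40 after arm centring, and leaving out 1 array gave -0.62 to 0.45. With array weights YDR385W was -0.0944, YER011W -0.11, YFR053C -0.22, YMR318C -0.19, YOL059W -0.58 and YPR080W -0.11. Leaving out 1 array gave -0.26 to 1.80 for YDR385W, -0.23 to 1.26 for YER011W, -0.26 to 0.71 for YFR053C, -0.19 to 1.71 for YMR318C, -0.029 to 0.70 for YOL056W, -0.75 to 1.63 for YOL059W, -0.059 to 2.32 for YPL079W and -0.22 to 1.73 for YPR080W. The number of arrays and the single dye orientation limit every value here.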
